A study of Mus musculus with 4 samples.

Results

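Iron uptake, storage, export and sensing were followed across 4 CUT&Tag libraries through 10 mouse genes, Tfrc, Steap3, Slc11a2, Fth1, Ftl1, Ncoa4, Slc40a1, Ireb2, Aco1 and Fbxl5. The genes were taken by name for their roles, and all 10 were found among the 21887 protein-coding genes of the RefSeq table of GRCm38.p6, which shares its coordinates with mm10. CUT&Tag uses an antibody, here one against the AAA+ ATPase Ruvbl2, to direct a transposase to chromatin. Leukaemia stem cells (LSC), sorted from bone marrow of Nup214 fl/+ mice with MLL-AF9-driven leukaemia, lacked lineage markers and Sca-1 and carried CD34, CD16/32 and c-Kit, and haematopoietic stem cells (HSC, CD48-negative, CD150-positive LSK) came from Nup214 fl/+ mice, so the floxed allele was shared by both groups. Each group had 2 libraries. The LSC gate is one that also fits granulocyte-monocyte progenitors, the labels give no age and do not say whether animals were pooled or whether the libraries came from separate animals, and the cell type field reads haematopoietic stem cell for all 4 libraries, whose groups come from their titles. The labels name no control library, give an anti-rabbit secondary antibody and leave out the host of the Ruvbl2 antibody; how far the signal depends on that antibody was not tested.

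Cells take up iron mainly as transferrin through the transferrin receptor, reduce it in endosomes and move it to the cytosol, where what is not used is stored in ferritin. Ferritin is broken down by autophagy when iron is needed, and surplus iron leaves through ferroportin. Iron-regulatory proteins bind RNA hairpins in the messages of the receptor, of the ferritins and of ferroportin, so that much of this control acts on RNA and not at promoters. Labile iron feeds lipid peroxidation, the process that kills cells in ferroptosis.

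The sequences before the starts of the genes on which the peaks at starts turned are given first, as the 250 bases before each start, 5′ to 3′ on the gene's strand, from RefSeq (GRCm38.p6). Capitals mark letters matching any of 6 motifs searched on both strands: the E-box CACGTG, the hypoxia response core ACGTG (also contained in every E-box), the antioxidant response element core TGACNNNGC, the GC box GGGCGG, the CCAAT box CCAAT and the YY1 motif CCATNTT. Ncoa4 is shown at 2 of its starts because all 4 libraries had a peak at or beside both, Aco1, Ftl1 and Fth1 because replicate 2 of both groups had a peak over the start, and the upstream start of Fth1 because no peak covered it.
Ncoa4, first start, plus strand, chr14:32159637-32159886: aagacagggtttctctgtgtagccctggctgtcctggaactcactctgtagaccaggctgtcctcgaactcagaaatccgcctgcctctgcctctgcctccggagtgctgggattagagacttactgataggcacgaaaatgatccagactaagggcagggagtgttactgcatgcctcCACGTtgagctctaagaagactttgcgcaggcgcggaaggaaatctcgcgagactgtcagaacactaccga
Ncoa4, last start, plus strand, chr14:32165539-32165788: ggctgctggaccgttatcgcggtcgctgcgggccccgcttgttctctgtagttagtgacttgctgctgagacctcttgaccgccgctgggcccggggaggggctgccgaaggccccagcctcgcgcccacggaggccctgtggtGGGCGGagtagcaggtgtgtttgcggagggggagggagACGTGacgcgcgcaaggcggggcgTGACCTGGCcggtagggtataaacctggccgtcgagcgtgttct
Aco1, plus strand, chr4:40143015-40143264: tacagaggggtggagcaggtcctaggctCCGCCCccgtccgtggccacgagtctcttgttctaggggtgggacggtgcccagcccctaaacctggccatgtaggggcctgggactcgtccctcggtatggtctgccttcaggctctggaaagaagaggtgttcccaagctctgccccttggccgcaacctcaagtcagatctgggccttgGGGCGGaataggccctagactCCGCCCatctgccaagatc
Ftl1, minus strand, chr7:45459887-45460136: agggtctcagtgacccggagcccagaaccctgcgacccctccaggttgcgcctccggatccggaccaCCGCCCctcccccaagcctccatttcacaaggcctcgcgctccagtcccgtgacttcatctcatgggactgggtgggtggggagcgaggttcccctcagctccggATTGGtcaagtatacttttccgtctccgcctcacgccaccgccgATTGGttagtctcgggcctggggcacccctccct
Fth1, downstream start, plus strand, chr19:9982396-9982645: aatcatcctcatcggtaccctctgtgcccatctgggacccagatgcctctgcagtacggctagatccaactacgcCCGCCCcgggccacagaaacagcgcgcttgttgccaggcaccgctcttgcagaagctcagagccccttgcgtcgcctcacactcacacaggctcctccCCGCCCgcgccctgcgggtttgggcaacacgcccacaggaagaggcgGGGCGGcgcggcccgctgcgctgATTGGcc
Fth1, upstream start, plus strand, chr19:9980350-9980599: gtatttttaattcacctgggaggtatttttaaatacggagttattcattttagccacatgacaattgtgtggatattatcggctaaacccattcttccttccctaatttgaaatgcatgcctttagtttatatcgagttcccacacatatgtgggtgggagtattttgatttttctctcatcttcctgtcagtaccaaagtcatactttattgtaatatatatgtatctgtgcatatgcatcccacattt
The RefSeq promoter table held 14 starts for 7 of the genes and none for Slc40a1, Slc11a2 and Fbxl5. GC boxes stood before 8 of the 14 starts, beside 42.6% of 21263 starts of protein-coding genes, and CCAAT boxes before 4 of 14, beside 35.4%. The hypoxia response core stood before 3 of 14 (17.8% of all starts) and the antioxidant response element core before 1, the last start of Ncoa4 (10.4% of all starts). The E-box (6.63% of all starts) and the YY1 motif (11.2%) matched none of the 14. These matches describe the letters alone.

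The deposited lists held 216077 and 210541 peaks for LSC replicates 1 and 2, and 161655 and 286107 for HSC replicates 1 and 2. Depth is unknown because the lists carry no read totals, so libraries were compared over equal lists of 20000 peaks with the smallest p, and a peak on such a list is called listed. Listed peaks were wider in replicate 2 than in replicate 1 of both groups, with medians of 371 bp (replicate 1) and 634 bp (replicate 2) in LSC and of 484 bp and 714 bp in HSC. Peak names follow one scheme in replicate 1 of both groups and another in replicate 2, so LSC was set against HSC at each replicate number. Over all protein-coding genes, 44.3% and 52.0% had a listed peak in the body or 10 kb flanks in LSC replicates 1 and 2. In HSC replicates 1 and 2 these shares were 42.1% and 51.8%, and the marker counts that follow stand beside them. Of 10 LSC-gate and myeloid progenitor genes, 8 and 7 had such a peak in LSC replicates 1 and 2, and 6 and 9 in HSC replicates 1 and 2. Of 8 stem cell and HSC-gate markers, 4 and 5 had one in LSC and 4 in each HSC library, so peaks at these genes did not separate the cell types. Kit, which belongs to both gates, is on both lists. Erythroid markers gave 3 of 10 in each LSC library and 4 of 10 in each HSC library, and macrophage markers 2 and 3 of 10 in LSC and 5 and 3 of 10 in HSC; their part in the results was not tested. With 2 libraries a group, an exact two-sided permutation test cannot go below p = 0.333, so no test was made of LSC against HSC and differences are given library by library.

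Ftl1 and Ncoa4, both on the storage side of iron handling, were the members with a listed peak in the gene body or 10 kb flanks of all 4 libraries, and Slc40a1, the exporter, had none in any. No member was listed in both LSC libraries and neither HSC library, and Steap3 was the one listed in both HSC and neither LSC library. The counts per library were 4 of 10 in LSC replicate 1 and 6 of 10 in LSC replicate 2, beside 44.3% and 52.0% of all protein-coding genes, and 3 of 10 in HSC replicate 1 and 9 of 10 in HSC replicate 2, beside 42.1% and 51.8%. Replicate 2 thus held more members than replicate 1 in both groups, and in replicate 1 the members lay near or below the background share. All 4 libraries shared 2 of 10 members, beside 18.1% of genes, and the 0 and 1 of 10 for LSC alone and HSC alone stood beside 2.84% and 2.33% of genes. The median gene length was 30.1 kb for the members and 17.2 kb for all protein-coding genes. A longer gene has a longer window, and the part of this in the counts was not tested. Fth1 was listed in 3 libraries (19.6% of genes in exactly 3), Tfrc, Steap3, Slc11a2, Ireb2 and Aco1 in 2 (19.5%) and Fbxl5 in 1 (20.2%). At any strength, all 10 members had a deposited peak in every library, beside 93.9% of genes in each LSC library, 90.8% and 95.5% in HSC replicates 1 and 2 and 83.0% in all 4, so presence alone separated nothing.

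**Figure D1:**
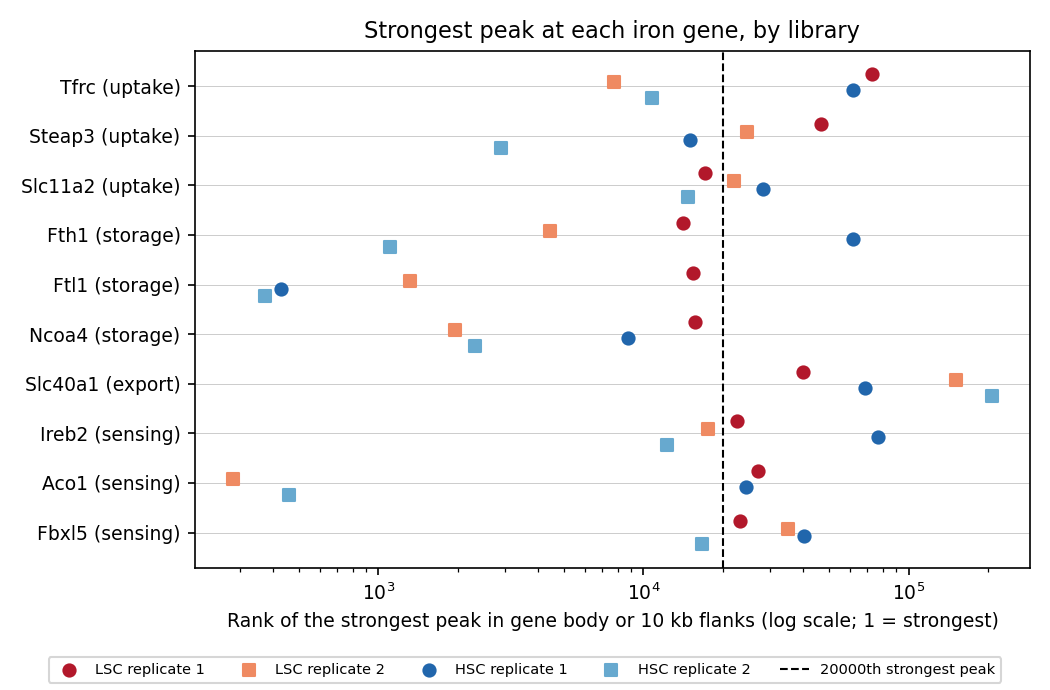
Rank of the strongest peak in the gene body or 10 kb flanks of each iron gene, on a log axis, with one point per library and a dashed line at the 20000th peak. Ftl1 and Ncoa4 have all 4 points left of the line and Slc40a1 has all 4 right of it; right of the line the lists have different lengths and ranks are not comparable between libraries.

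At replicate 1, Slc11a2 and Fth1 were listed in LSC and not in HSC, and Steap3 in HSC and not in LSC, or 2 and 1 of 10 members beside 18.5% and 16.2% of genes. At replicate 2, 0 of 10 members were listed in LSC and not in HSC (12.8% of genes), and 3 of 10, Steap3, Slc11a2 and Fbxl5, in HSC and not in LSC (12.7% of genes). Steap3 was the one gene to go the same way at both numbers, and Slc11a2 went opposite ways. The replicate 1 counts stand near the background shares. At replicate 2 the HSC count is above its share and the LSC count below, which was not tested, and Slc11a2 and Fbxl5 did not show that direction at replicate 1.

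The replicate number set apart more of the peaks at starts than the cell type did. A listed peak lay within 1 kb of a RefSeq start at 2 and 6 of the 7 genes with one in LSC replicates 1 and 2, beside 9.54% and 24.8% of genes, and at 2 and 6 of 7 in HSC replicates 1 and 2, beside 9.03% and 24.1%. Fth1, Ftl1, Ncoa4, Ireb2 and Aco1 had one in both replicate 2 libraries, 5 of 7 beside 16.2% of genes, and Ncoa4 alone had one in both replicate 1 libraries (3.34% of genes). Fth1, Ireb2 and Aco1 had it in both replicate 2 and neither replicate 1 library, 3 of 7 beside 8.14% of genes, and no member showed the reverse (0.172%). Between cell types, Steap3 was listed at a start in both HSC and neither LSC library, 1 of 7 beside 0.789% of genes, and 0 of 7 in both LSC and neither HSC library (0.835%); Ncoa4 was listed in all 4 (2.84%). At replicate 1, Ftl1 had a listed start peak in LSC and not HSC (6.20% of genes) and Steap3 in HSC and not LSC (5.69%). At replicate 2 these were Tfrc (8.59%) and Steap3 (7.92%). A peak of any strength lay within 1 kb of a start at 6 and 7 of 7 genes in LSC replicates 1 and 2 (35.3% and 50.8% of genes) and at 3 and 7 of 7 in HSC replicates 1 and 2 (28.1% and 54.8%), and at Steap3, Fth1 and Ncoa4 in all 4 (10.7%). The 7 genes had 2.0 starts each on average, against 1.22 for all genes with an entry, and the part of this in the counts per gene was not tested. Both ends of the gene, which can be had for all 10 members, gave 1 and 5 of 10 listed within 1 kb in LSC replicates 1 and 2, beside 11.0% and 25.5% of genes, and 3 and 6 of 10 in HSC replicates 1 and 2, beside 10.6% and 25.1%. Counted per start, 3 and 7 of 14 were listed in LSC replicates 1 and 2, beside 9.35% and 24.1% of all starts, and 5 and 9 of 14 in HSC replicates 1 and 2, beside 8.77% and 23.6%. Starts near one another shared peaks. The 250 bases before the 14 starts had a median GC content of 63.2%, against 55.6% over all starts, and starts with a listed peak were richer in GC in every library, with medians of 60.4% in both LSC libraries and 60.0% and 60.8% in HSC replicates 1 and 2, against 53.2% to 55.2% at starts without one. The part of base composition in the members' counts was not tested.

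**Figure D2:**
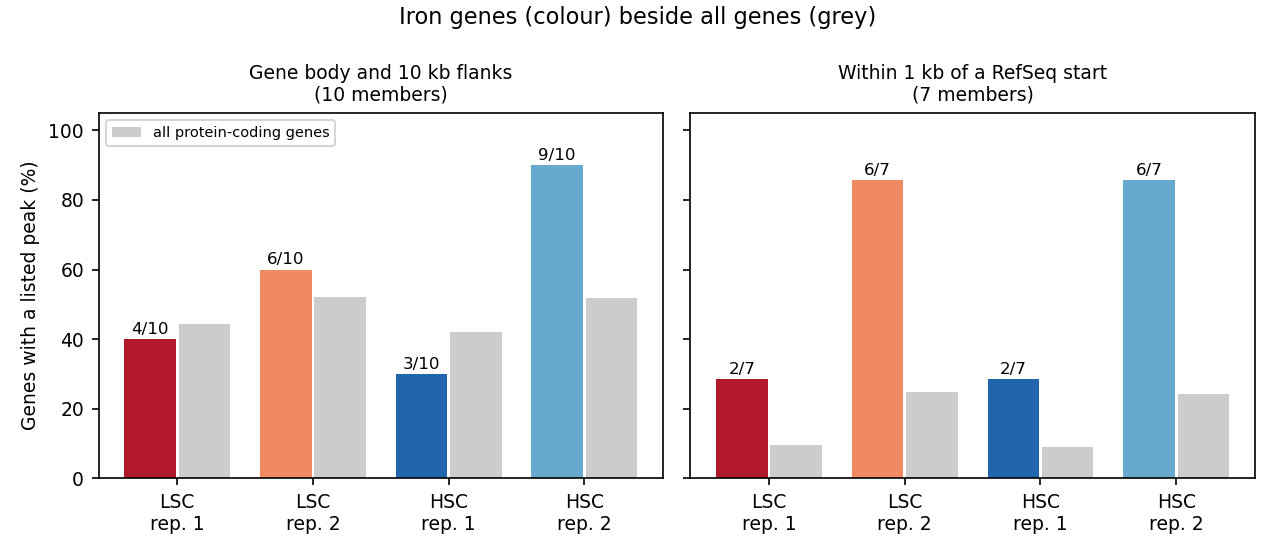
Share of the iron genes with a listed peak (coloured bars, with counts) beside that of all protein-coding genes (grey), in the gene body and 10 kb flanks (left) and within 1 kb of a RefSeq start (right), for each library. At starts, both replicate 2 libraries reach 6 of 7 and both replicate 1 libraries 2 of 7.

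Among the uptake genes, Tfrc encodes the transferrin receptor (chromosome 16, 32608896 to 32632794, plus strand). Its strongest peak ranked 72995 in LSC replicate 1 with a fold of 15.0 and 7718 in LSC replicate 2 with a fold of 23.5, and it ranked 61549 in HSC replicate 1 with a fold of 15.0 and 10756 in HSC replicate 2 with a fold of 14.8. The fold here and below is the authors' MACS2 value of a peak against the background of its own library, so it ranks peaks within a library and is not compared between them. Although both replicate 2 libraries listed Tfrc, they did so at different places. In LSC replicate 2 the peak, 838 bp wide, covered the first start with its summit 140 bp before it, on a pileup of 110 fragments. In HSC replicate 2 the listed peak (32638448 to 32638874) lay beyond the far end of the gene, 29681 bp past the nearest start, and the strongest peak within 1 kb of a start ranked 69665. The strongest Tfrc peak of LSC replicate 1 overlapped that distal peak, with summits at 32638806 in LSC replicate 1 and 32638803 in HSC replicate 2.

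Steap3 encodes the ferrireductase that reduces iron in endosomes of red cell precursors (chromosome 1, 120226414 to 120271081, minus strand, 4 starts). Its strongest peak ranked 46556 and 24656 in LSC replicates 1 and 2, with folds of 19.2 and 16.7, and 15016 and 2910 in HSC replicates 1 and 2, with folds of 26.0 and 21.7. Both HSC libraries were thus inside the listed range and both LSC libraries outside it. The listed peaks that made the HSC call did not coincide. In HSC replicate 1 the listed peak lay at 120270400 to 120270995, between the starts at 120270270 and 120271080. It overlapped weaker peaks of LSC replicate 2 (rank 137621) and HSC replicate 2 (rank 206464). In HSC replicate 2 the strongest lay at 120264900 to 120265320, over the start at 120265286, and a further listed one at 120245080 to 120245496 (rank 18052). The strongest HSC replicate 2 peak overlapped the strongest Steap3 peaks of both LSC libraries, at 120264350 to 120265007 and 120264360 to 120264997. HSC replicate 1 had no peak within 1 kb of the start at 120265286. With the 40000 strongest peaks Steap3 was listed in HSC alone at replicate 1 and no longer at replicate 2.

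Slc11a2 encodes DMT1, the transporter that carries ferrous iron out of endosomes (chromosome 15, 100387898 to 100424209). Its strongest peak ranked 17072 and 21919 in LSC replicates 1 and 2, with folds of 30.4 and 17.6, and 28188 and 14662 in HSC replicates 1 and 2, with folds of 20.0 and 13.7. The 4 peaks lay at 4 different places, inside the gene in 3 libraries and in its flank, within the lncRNA gene Gm5475, in LSC replicate 2. One region, at 100386887 to 100387790 beside the lower-coordinate end of the gene, had peaks in 3 libraries, none of them listed.

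Ferritin, the storage shell, is built of heavy and light chains. Fth1, the heavy chain with the ferroxidase site (chromosome 19, 9980600 to 9985111, plus strand), had listed peaks in 3 libraries: 1 in LSC replicate 1, 6 in LSC replicate 2, 0 in HSC replicate 1 and 4 in HSC replicate 2. The strongest ranked 14158 and 4448 in LSC replicates 1 and 2, with folds of 33.3 and 28.2, and 61794 and 1102 in HSC replicates 1 and 2, with folds of 15.0 and 31.1. RefSeq gives Fth1 a pair of starts with unlike sequence, the upstream one with 34.8% GC and 3 CpG in the 250 bases before it, and the downstream one with 66.8% GC and 21 CpG, where GC boxes and a CCAAT box are in capitals above. Peaks covered the downstream start in LSC replicate 2 (9982145 to 9983242, summit 313 bp past the start, rank 12587, pileup 97) and in HSC replicate 2 (9982269 to 9983385, summit 192 bp past it, rank 1102, pileup 165). LSC replicate 1 had no peak within 1 kb of that start, and HSC replicate 1 had one ranking 120203 that ended 852 bp short of it. No library had a peak over the upstream start. A region before that start, at 9978234 to 9979708, was listed in both LSC libraries and HSC replicate 2, with folds of 33.3, 19.1 and 18.3, and a further one, at 9974274 to 9975692, in both replicate 2 libraries, with folds of 25.8 in LSC and 20.2 in HSC. Part of the Fth1 signal beyond the gene's far end, including the strongest peak of LSC replicate 2 (9989315 to 9990043), lay inside the adjacent gene Best1, so the window does not assign it to Fth1.

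Ftl1, the light chain (chromosome 7, 45457944 to 45459886, minus strand), was listed in all 4 libraries at one merged region, 45456440 to 45458292. All 4 summits lay in the gap between its own 3′ end and the gene Gys1, whose higher-coordinate end is at 45456617. The peaks of LSC replicate 1 (45456831 to 45457686) and HSC replicate 1 (45457016 to 45457478) met neither gene. That of LSC replicate 2 reached into Ftl1, and that of HSC replicate 2 into both genes. Folds there were 32.0 and 23.3 in LSC replicates 1 and 2, and 71.9 and 28.6 in HSC replicates 1 and 2. By rank within the equal lists the region stood at 15409 and 8122 in LSC and at 429 and 1391 in HSC. How many regions over the genome rank in such an order was not counted, so these ranks are not read as a group difference. At the start the replicates differed. Peaks of 1979 bp in LSC replicate 2 (rank 1312, pileup 211) and 2738 bp in HSC replicate 2 (rank 375, pileup 256) covered it, with summits 185 bp past and 25 bp before it. In LSC replicate 1 a peak ranking 16328 stopped 650 bp before the start, and HSC replicate 1 had none within 1 kb. Bax, the apoptosis effector gene next to Ftl1, carried a listed peak inside it in LSC replicate 2 (rank 9340) and HSC replicate 1 (rank 12187), within the Ftl1 window. Ferritin genes have processed copies elsewhere, and of 5 annotated in RefSeq, 0 and 1 were touched by a peak in LSC replicates 1 and 2, and 0 and 3 in HSC replicates 1 and 2. The peak of LSC replicate 2, at the copy Ftl1-ps2, was listed at rank 24 with a fold of 699, above every peak of that library at Ftl1 and Fth1, and had its summit outside the copy. A summit fell inside a copy in 1 case, in HSC replicate 2. How reads matching several places were handled is not given in the sources used here.

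Ncoa4 encodes the receptor that delivers ferritin to autophagy (chromosome 14, 32159879 to 32179855, plus strand). It had deposited peaks at or beside both of its start areas in every library, and 2 of the 3 member regions with a peak in all 4 libraries were these. The region at the first start, 32158841 to 32161282, had folds of 24.7 and 38.3 in LSC replicates 1 and 2, and 23.0 and 17.6 in HSC replicates 1 and 2. Its ranks were 26962 and 1952 in LSC and 19327 and 5638 in HSC, so LSC replicate 1 alone fell outside the listed range. The region at the 2 downstream starts, 32163952 to 32165952, had folds of 31.7 and 9.32 in LSC, and 34.2 and 23.8 in HSC. Its ranks were 15686 and 96434 in LSC and 8715 and 2312 in HSC, and here LSC replicate 2 alone fell outside. The LSC libraries thus listed Ncoa4 at different starts, and both HSC libraries listed it at both. Summits of LSC replicate 1, LSC replicate 2 and the nearer of the HSC replicate 1 peaks lay 93, 196 and 68 bp before the last start, inside the sequence printed above, while that of HSC replicate 2 lay 601 bp before it.

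**Figure D3:**
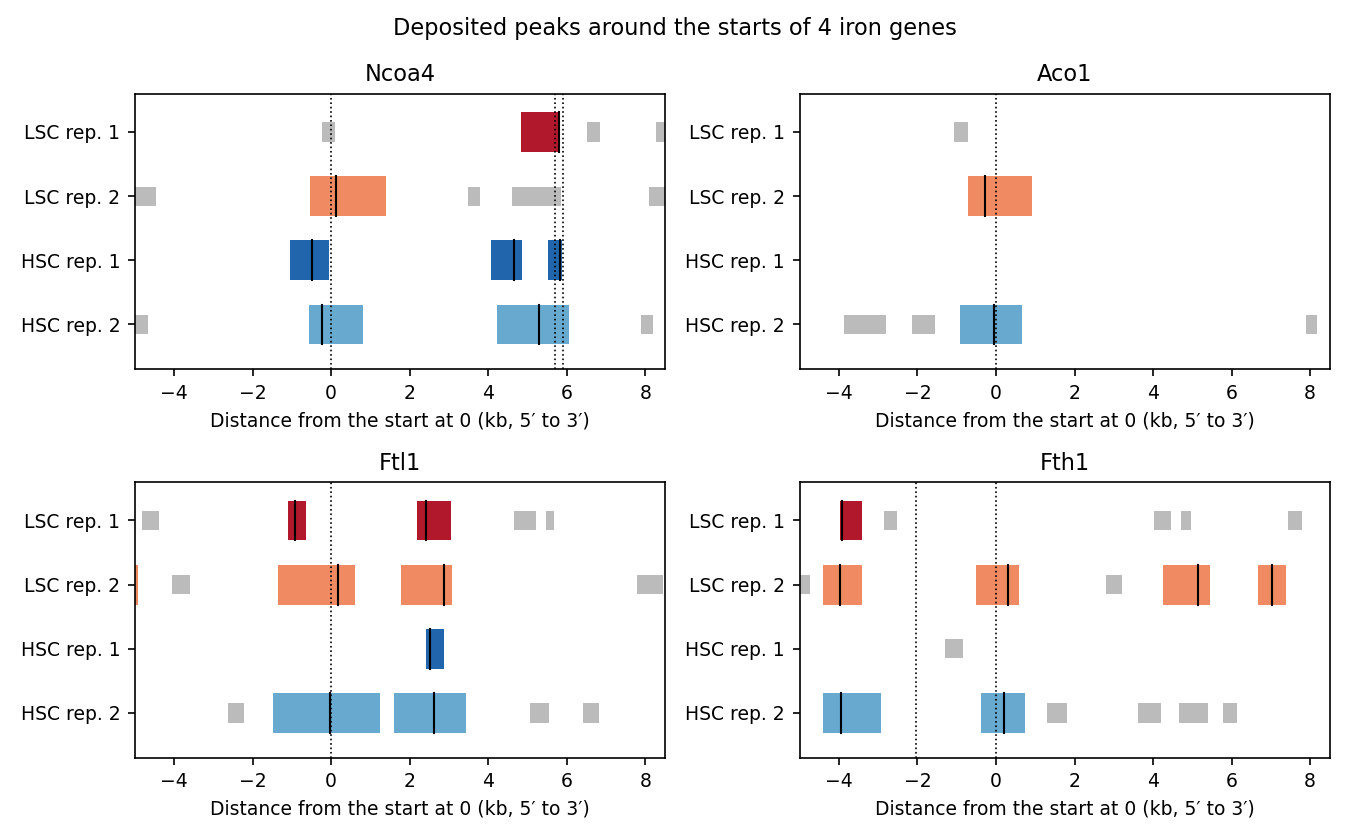
Deposited peaks around the starts of Ncoa4, Aco1, Ftl1 and Fth1, as distance in kb from the start at 0 along the gene's strand; coloured bars are listed peaks with a black line at the summit, narrow grey bars are weaker peaks, and dotted lines are RefSeq starts. Aco1, Ftl1 and Fth1 have a peak over the start in replicate 2 of both groups, and Ncoa4 has peaks at both start areas in all 4 libraries.

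Slc40a1 encodes ferroportin, the cellular iron exporter (chromosome 1, 45908070 to 45926532). It was the one member with no listed peak in any library. Its strongest peak ranked 39874 and 151106 in LSC replicates 1 and 2, with folds of 20.7 and 6.78, and 68432 and 206162 in HSC replicates 1 and 2, with folds of 14.2 and 4.68. In the replicate 2 libraries these were the lowest ranks of the 10 members, while in replicate 1 Tfrc and Steap3 ranked below it in LSC and Ireb2 in HSC. Of all protein-coding genes, 22.7% had no listed peak in their window in any library. Its peaks numbered 5 and 1 in LSC and 4 and 2 in HSC. Whether a weaker signal was present could not be seen at this depth, since the lists stop at folds of 3.48 and 3.60 in LSC and 4.10 and 3.56 in HSC.

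Of the 3 iron sensors, Aco1 and Ireb2 were listed in both replicate 2 libraries and neither replicate 1 library, as was Tfrc. Fbxl5 was listed in HSC replicate 2 alone. The share of all genes with the pattern of Aco1 and Ireb2 in the window was not counted, so it is not read as a trait of the sensors. Of all protein-coding genes, 19.5% were listed in exactly 2 libraries, in any combination. Aco1 encodes IRP1, a cytosolic aconitase that becomes an RNA-binding iron-regulatory protein when it loses its iron-sulphur cluster (chromosome 4, 40143265 to 40199009, plus strand). In LSC replicate 2 it gave the strongest start peak of the 7 genes with a start, with rank 283, a fold of 78.4 and a pileup of 369 fragments (95% Poisson interval from 332.3), and a peak of rank 460 in HSC replicate 2, with a fold of 44.2 and a pileup of 235 (from 205.9). These peaks were 1648 and 1594 bp wide and covered the start with summits 278 and 51 bp before it. The summit of HSC replicate 2 lay in the sequence with 3 GC boxes printed above. That of LSC replicate 2 lay further upstream, outside that sequence. In LSC replicate 1 the strongest peak within 1 kb ranked 123344 with a fold of 9.88 and stopped 705 bp before the start, and HSC replicate 1 had none there. In those libraries the strongest Aco1 peaks lay inside the gene, 15555 bp past the start at rank 27138 in LSC and 36891 bp past it at rank 24410 in HSC. The intervals cover counting error alone, and a summit is the highest point of its peak.

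Ireb2 encodes IRP2, the iron-regulatory protein that is degraded when iron is plentiful (chromosome 9, 54862658 to 54912534, plus strand). Its strongest peak ranked 22513 and 17459 in LSC replicates 1 and 2, with folds of 26.9 and 19.1, and 76659 and 12268 in HSC replicates 1 and 2, with folds of 13.7 and 14.4. Both replicate 2 peaks lay at the start at 54863755, from 54863401 to 54863726 in LSC, ending 29 bp before it, and from 54863652 to 54864099 in HSC, over it, and they overlapped each other. Neither replicate 1 library had a peak within 1 kb of that start.

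Fbxl5 encodes the iron-sensing subunit of the ubiquitin ligase that removes IRP2 (chromosome 5, 43744618 to 43782149). Its strongest peak ranked 23140 and 34989 in LSC replicates 1 and 2, with folds of 26.5 and 14.4, and 40331 and 16681 in HSC replicates 1 and 2, with folds of 17.8 and 13.3. HSC replicate 2 alone listed it, at 43781958 to 43782581 across the higher-coordinate end of the gene and at 43786187 to 43786645 beyond it. At the second place, where the HSC replicate 2 peak ranked 18769, both LSC libraries had peaks outside the listed range, at ranks 172626 and 34989.

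By region, most peaks at the members were found once. The deposited peaks in the 10 windows merged into 190 regions, with 137 (72.1%) seen in 1 library, 38 (20.0%) in 2, 12 (6.32%) in 3 and 3 (1.58%) in all 4. Genome-wide, 721154 regions divided into 84.2% seen in 1 library and 0.595% in all 4. Deposited peaks were denser in the members' windows than in those of all protein-coding genes, at 12.6 and 14.8 peaks per 100 kb in LSC replicates 1 and 2 and 9.74 and 17.0 in HSC replicates 1 and 2, beside 9.80 and 9.59 in LSC and 6.91 and 12.8 in HSC over all genes. Listed peaks were at 1.01 and 2.84 per 100 kb in LSC and 1.22 and 3.45 in HSC, beside 1.03 and 1.16 in LSC and 0.956 and 1.15 in HSC, so the excess of listed peaks lay mostly in replicate 2 of both groups. Of the 6 pairs of libraries, replicate 2 of LSC and HSC shared the most member regions, 26, or 35.6% of those of LSC and 31.7% of those of HSC. LSC replicate 2 shared 18 with LSC replicate 1, 24.7% of its own and 30.5% of those of replicate 1. The HSC libraries shared 10, 21.3% of those of replicate 1 and 12.2% of those of replicate 2. At replicate 1, LSC and HSC shared 12, or 20.3% of those of LSC and 25.5% of those of HSC. LSC replicate 1 shared 17 with HSC replicate 2, and LSC replicate 2 shared 9 with HSC replicate 1. The replicate 2 libraries also held the most member regions, 73 in LSC and 82 in HSC. Shares by pair over the genome were not counted. With summits required to lie within 200 bp, 0 regions had a peak in all 4 libraries.

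**Figure D4:**
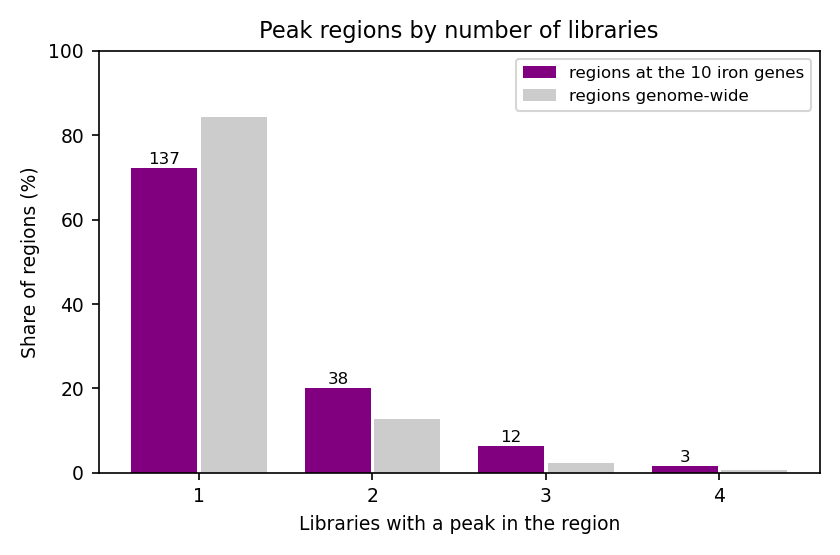
Share of merged peak regions found in 1, 2, 3 or 4 libraries, for the windows of the 10 iron genes (purple, with counts of regions) and genome-wide (grey). Single-library regions make up 72.1% of those at the iron genes, and 3 regions are found in all 4 libraries.

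Of 56 other genes of iron handling, 32 and 34 had a listed peak in their windows in LSC replicates 1 and 2, beside 44.3% and 52.0% of all genes, and 25 and 32 in HSC replicates 1 and 2, beside 42.1% and 51.8%. All 4 libraries listed 13 of them (18.1% of all genes), among them Hfe, which binds the transferrin receptor, the iron chaperone genes Pcbp1, Pcbp2 and Pcbp3, the mitochondrial iron importer Slc25a28, the haem oxygenase Hmox1, haptoglobin (Hp), the haemopexin receptor Lrp1, the ubiquitin ligase genes Rbx1 and Herc2, Nfe2l2, which encodes the antioxidant transcription factor NRF2, and the autophagy gene Atg5. These calls are by window. Within 1 kb of a RefSeq start, Pcbp2, Rbx1 and Nfe2l2 were listed in every library, Atg5 in LSC replicate 2 alone, and Hfe and Lrp1 in none. Bach1, a haem-sensing repressor of Hmox1 and the ferritin genes, and Erfe, an erythroid hormone that lowers hepcidin, were listed in both LSC and neither HSC library, 2 of 56 beside 2.84% of genes, and 0 of 56 were listed in both HSC and neither LSC (2.33%). At Bach1 the strongest peak ranked 8247 and 4739 in LSC replicates 1 and 2, and 95389 and 24947 in HSC replicates 1 and 2. At Erfe it ranked 13526 and 5755 in LSC, and 25735 and 24382 in HSC, just outside the listed range. Nfe2l2 had the strongest peaks of the group by its worst rank, with 568 and 312 in LSC and 701 and 180 in HSC. In 3 libraries the listed genes were Pcbp4, Hmox2, Snx3, Epas1 and Myc (missing in HSC replicate 1), Tmprss6, Flvcr2, Lcn2, Atg7 and Smad4 (missing in LSC replicate 1), and Steap2, Exoc6 and Cul1 (missing in HSC replicate 2). Steap2 in LSC replicate 2 and Cul1 in LSC replicate 1 were listed through a peak tied with the weakest listed one, so those calls rest on the order of ties. No listing of a member did.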

How the data were processed

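The 4 libraries, 2 of LSC and 2 of HSC, each had a peak list of its own, grouped by sample title. Per the submitters' processing notes, FastQC 0.11.5, Bowtie2 2.2.9, MACS2 and ChIPseeker were used with the build mm10; nothing used here states the calling threshold, read filters or handling of duplicates. Per the labels' protocols, 2000 to 5000 cells and 17 to 20 PCR cycles were used, with a goat anti-rabbit secondary antibody. The score the authors deposited is the −log10 q-value multiplied by 10, the deposited fold is a ratio to the library's background, and the deposited −log10 p-value and −log10 q-value test the summit pileup; the summit position is an offset from the peak's start. Coordinates are printed 1-based.

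Peaks on 21 chromosomes were ranked by −log10 p and the 20000 strongest called listed. The spacing of the fold values gave each peak with a fold under 60 a whole pileup (tolerance 0.05) above one background per library. That background was 4.46 and 3.72 in LSC replicates 1 and 2 and 2.66 and 4.34 in HSC replicates 1 and 2. Pileups at higher folds were rounded in the same way without that check, among them that of Aco1 in LSC replicate 2, at a fold of 78.4. A gene counted as listed where such a peak met its body or 10 kb flanks by at least 1 bp. The members and gene lists were chosen with earlier results of these data known. All members were named, as were other iron genes listed in 3 or 4 libraries or in one group alone, apart from a gene that is not reported here; of 59 names, 56 matched separate protein-coding genes. The counting steps were run on simulated lists with planted peaks of widely separate strength. That run checks the counting alone and says nothing of calls near the cut. Python 3.11.15, pandas 2.3.3 and numpy 2.4.6 were used.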

Additional observations from a re-analysis of the deposited data

How the results depend on the processing

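Ranking by fold, the summit in the window and at least 50% of the peak in the window left every count of members listed in all 4 libraries, in one group alone or in one group at a replicate number as it was. With all deposited peaks, 10 members were listed in all 4 libraries, beside 83.0% of genes. Every count of members differing between LSC and HSC was then 0, beside 0.420% to 6.79% of genes. With the 10000 strongest peaks, 0 were listed in all 4 (8.27% of genes) and 0 in both HSC alone (2.03%). At replicates 1 and 2, 0 and 1 (Tfrc) were in LSC and not HSC (16.1% and 11.8%). In HSC and not LSC these were 2 and 1 (13.8% and 11.5%). With the 40000 strongest, 4 were listed in all 4 libraries (34.1% of genes) and 0 in both HSC alone (2.19%). There were 4 in LSC and not HSC at replicate 1 (18.1%) and 0 in HSC and not LSC at replicate 2 (11.3%). With the gene body alone, 1 member, Ncoa4, was listed in all 4 (9.54% of genes), and Ftl1 no longer was. In LSC and not HSC there was 1 at each replicate number (14.3% and 12.4%). With 1000 bp around both gene ends, 1 was listed in all 4 (Ftl1, beside 2.91% of genes) and 0 in both HSC alone (0.873%). There were 0 and 1 in LSC and not HSC at replicates 1 and 2 (7.39% and 9.21%). In HSC and not LSC there were 2 at replicate 1 (6.99%). With 1000 bp around RefSeq starts, which 7 members have, 1 was listed in all 4 (Ncoa4, beside 2.84% of genes). There was 1 in LSC and not HSC at each number (6.20% and 8.59%), and 1 in HSC and not LSC at replicate 2 (7.92%). Slc11a2, Slc40a1 and Fbxl5 lack such starts and could not be called there. No member was LSC-only under any of these settings. Requiring summits within 200 bp left 0 regions in all 4 libraries, against 3. Leaving out 1 library at a time, 2 to 3 members were listed in all others (20.6% to 26.0% of genes). LSC alone had 0 to 1 (Fth1 without HSC replicate 2), beside 5.32% to 10.8% of genes. HSC alone had 1 to 2 (Fbxl5 added without HSC replicate 1), beside 5.11% to 8.69%. No paired analysis was possible because the counts come from no test, and LSC and HSC were set side by side at each replicate number. The cause of these changes was not tested beyond what the windows and list lengths set by construction. Unknown depth, unequal lists and 2 libraries a group limit every comparison.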
